A study of Mus musculus with 61 samples.

Results

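The addition of MafA to Ngn3 and Pdx1 was examined in mouse pancreatic ductal organoids by comparing sorted cells that carried the reporters of all 3 factors (Ngn3-Pdx1-MafA cells) with sorted cells that carried the reporters of Ngn3 and Pdx1 only (Ngn3-Pdx1 cells). The samples were chosen by their labels alone. They comprised 22 of the 61 libraries of the series, of which 19 had more than 1000000 counts on genes and were kept, and summing the technical repeats of each replicate left 11 of the 32 samples, 5 with MafA and 6 without.

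The organoids were grown from ductal cells of C57BL/6 mice and infected with lentiviral vectors that express each factor, together with its own fluorescent protein, under the control of doxycycline. GFP marked Ngn3, LSSmOrange marked Pdx1 and tdTomato marked MafA, and RNA was sequenced from pools of 50 cells sorted by these colours after 8 days of doxycycline. Ngn3 was given either as the wild-type protein (WT) or as a phospho-mutant in which 6 serines were replaced by alanine (6SA). The 4 groups were WT Ngn3-Pdx1-MafA (n = 3), 6SA Ngn3-Pdx1-MafA (n = 2), WT Ngn3-Pdx1 (n = 3) and 6SA Ngn3-Pdx1 (n = 3). All of them shared the strain, the doxycycline treatment and the Pdx1 vector, the WT and the 6SA cultures were infected with different Ngn3 vectors, and the groups of each Ngn3 form differed in the MafA reporter. Replicates 1 and 2 were from organoids at passage 2 and replicate 3 from passage 5. Because 1 infected culture holds cells with different sets of reporters, the groups were separated by the sort and not by the dish. The vectors put each factor under doxycycline and not under its own promoter, so these cells stand for forced expression of the factors in duct cells. Nothing in the labels says that the replicates came from separate animals, so the p-values measure the spread between these samples, which may be technical.

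MafA is a basic leucine zipper transcription factor that, within the islet, is characteristic of the mature beta cell, where it binds a conserved Maf element in the insulin gene promoter and acts there together with Pdx1 and NeuroD1. Ngn3 (gene Neurog3) is the basic helix-loop-helix factor that starts endocrine differentiation in the embryonic pancreas, and Pdx1 is a homeodomain factor needed for pancreas formation and for beta-cell function. The comparison of the 4 groups addresses which transcripts, insulin first among them, differ in duct-derived cells when MafA is present beside the other 2 factors.

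The promoter of insulin 1 (Ins1), the gene the comparison turns on, is shown for its Maf element. Windows of 300 bases, from 250 bases before to 50 bases after the annotated gene start (RefSeq, GRCm38.p6), were searched on both strands for the Maf element TGCNNNNTCAGC, the E-box CATCTG, the homeodomain core TAATTA and the AP-1 element TGANTCA, where N is any base and matches of different motifs could overlap. In the Ins1 window the Maf element lay just after the annotated start and was followed by an E-box. Whether transcription starts at the annotated base was not tested, so this position does not place the element inside the transcript. The 30 bases at chr19:52264317-52264346 (plus strand, bases 21 to 50 counted from the start) are given below with the Maf element and then the E-box in capitals. The 30 bases around a Maf element of 3 other genes are given for comparison, and for Rtl8c, whose window held 3 overlapping or neighbouring matches, 1 of them is shown. Zyx (zyxin, a focal adhesion protein, chr6:42349579-42349608, plus strand) and Rtl8c (a domesticated retrotransposon gene, chrX:53607892-53607921, plus strand) were the other genes called higher in Ngn3-Pdx1-MafA cells that had a match, and Efna1 (ephrin A1, chr3:89281149-89281178, minus strand) was the gene called lower that had one. Each is written along its gene's strand with the element in capitals, which in Zyx is on the opposite strand. These 3 genes were picked for the match after their values were seen, and had log2 fold changes of 1.28 (Zyx), 2.89 (Rtl8c) and -1.42 (Efna1).
Ins1: cTGCAGCTTCAGCccctctggcCATCTGcc
Zyx: ggacgcggaGCTGAAGCTGCAgggaggggc
Rtl8c: cccctcctcTGCACTTTCAGCtaagcctag
Efna1: ctcctccccTGCAGGCTCAGCaccgagctg

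A Maf element was found in 1.23% of the 27025 windows of the genome and in 1.3% of those of the genes tested here. It was in 3 of the 92 windows of genes called higher (3.26%) and 1 of the 222 of genes called lower (0.45%). The E-box was in 15.2% and 12.6% of the same windows, against 12.6% of those of the genes tested, and the homeodomain core in 4.35% and 3.15%, against 2.8%. The AP-1 element was in 5.43% of the windows of genes called higher and in 11.3% of those called lower, against 5.7%. These are matches to letters in a short window around 1 annotated start per gene and were not tested.

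Each sample had between 2579583 and 19461008 counts on genes (median 8137720). The level 3 counts can show lay between 0.154 and 1.16 per 1e6 of these unscaled counts. CPM of samples are counts per 1e6 of the TMM-scaled library size. Mitochondrial transcripts took 3.38% to 11.6% of the counts in the 6SA Ngn3-Pdx1 samples, 1.85% and 5.38% in the 6SA Ngn3-Pdx1-MafA samples, 5.0% to 11.2% in the WT Ngn3-Pdx1 samples and 8.25% to 10.2% in the WT Ngn3-Pdx1-MafA samples. Of the ductal epithelial genes, Krt7 and Epcam were counted in every sample (at least 619 and 84.3 CPM), while Krt19 went down to 5.27 CPM and Cftr to 0 in samples with MafA, and 8 of the 17 duct genes tested fell there, as described below. Counts of Neurog3, Pdx1 and Mafa cannot tell the vector's transcript from the cell's own. Below, values of single Ngn3-Pdx1-MafA samples are given in the order WT replicates 1, 2 and 3 and 6SA replicates 1 and 2, and the 6 Ngn3-Pdx1 samples by their lowest, median and highest values.

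The 3 factors themselves were measured first. Mafa (ENSMUSG00000047591, chromosome 15, 75745490 to 75748228 in GRCm38) was at 3.56, 8.63, 3.46, 3.87 and 12.7 CPM in the Ngn3-Pdx1-MafA samples, while the Ngn3-Pdx1 samples had 1 count in all (highest sample 0.116 CPM). The groups did not overlap, and the pooled counts, 332 against 1, gave a ratio of 379 (95% exact interval 67.5 to 15009, counting error only). The log2 fold change over both Ngn3 forms was 8.09, with a standard error of 1.45 (edgeR adjusted p = 0.00323). The transcripts of the other 2 factors were not at equal levels in the groups. Pdx1 (ENSMUSG00000029644, chromosome 5, 147269959 to 147275848) was at 164, 191, 30.8, 150 and 134 CPM with MafA and at 9.84, 33.2 and 48.4 CPM (lowest, median and highest) without, so that 4 of the 5 samples were above all 6 others. Its log2 fold change was 2.16, with a standard error of 0.53 (edgeR adjusted p = 0.0284), and it passed the threshold in 4 of the 11 fits that left out 1 sample. Neurog3 (ENSMUSG00000044312, chromosome 10, 62133090 to 62134763) was at 196, 167, 14.6, 163 and 329 CPM with MafA and at 7.87, 38.5 and 226 CPM without, and the groups overlapped (log2 fold change 1.48, standard error 0.63, edgeR adjusted p = 0.252). WT replicate 3 of the Ngn3-Pdx1-MafA cells, the 1 such sample from passage 5, had the lowest Mafa, Pdx1 and Neurog3 of its group. The part of the higher Pdx1 and Neurog3 transcript levels in the differences reported here was not tested.

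**Figure D1:**
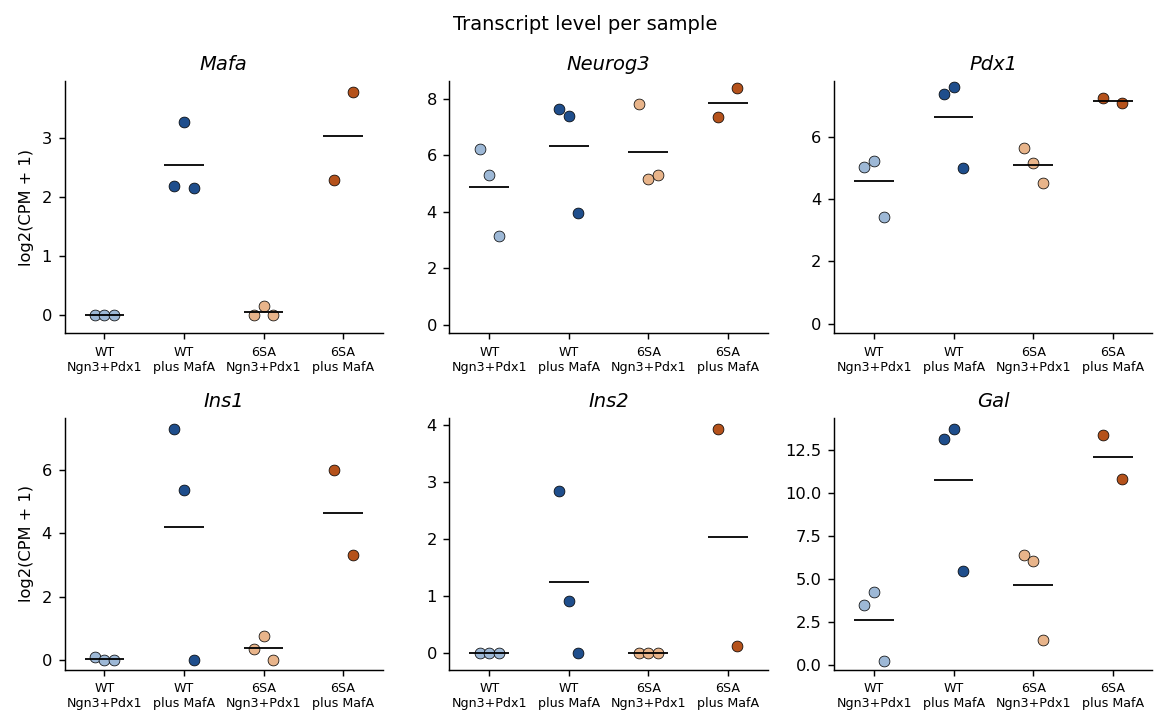
Levels of Mafa, Neurog3, Pdx1, Ins1, Ins2 and Gal in each of the 5 Ngn3-Pdx1-MafA and 6 Ngn3-Pdx1 samples, as log2(CPM + 1), with 1 point per sample, 1 panel per gene and a line at the mean of each of the 4 groups. Mafa separates the samples with and without MafA, whereas Ins1 and Gal do so except in WT replicate 3 with MafA, which has 0 CPM of Ins1 and 42.5 CPM of Gal.

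Ins1 (ENSMUSG00000035804, chromosome 19, 52264297 to 52265476) was counted in 4 of the 5 Ngn3-Pdx1-MafA samples, at 153, 39.6, 0, 62.5 and 8.86 CPM, from 1891, 271, 0, 922 and 102 counts. In the Ngn3-Pdx1 samples it was at 0, 0.0347 and 0.698 CPM (lowest, median and highest). The 4 samples with the transcript were above all 6 Ngn3-Pdx1 samples and WT replicate 3, the sample with the least Pdx1 and Neurog3 of its group, was at 0. The log2 fold change was 8.49, with a standard error of 1.48 (edgeR adjusted p = 0.00834), 10.27 in the WT and 6.70 in the 6SA cultures, neither of which passed the threshold by itself (edgeR adjusted p = 0.145 and 0.245). An exact permutation test of log2(CPM + 1) within the Ngn3 forms gave a mean difference of 4.22 and p = 0.02 (two-sided, adjusted p = 0.02 over the 2 insulin genes), where the smallest p that the 200 arrangements allow is 0.005. With DESeq2 the log2 fold change was 8.55 and the adjusted p 0.325, so Ins1 was not called by that tool.

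Insulin 2 (Ins2, ENSMUSG00000000215, chromosome 7, 142678656 to 142743381) was counted 76, 6, 0, 210 and 1 times in the Ngn3-Pdx1-MafA samples (6.16, 0.878, 0, 14.2 and 0.0868 CPM) and none in the 6 Ngn3-Pdx1 samples. Taking 3 counts per library as the lowest level there, the mean with MafA was at least 9.59-fold higher. Ins2 missed the threshold in the fit across genes (edgeR adjusted p = 0.081), and the same exact permutation test gave a mean difference of 1.64 on the log2(CPM + 1) scale and p = 0.02. Ins1 and Ins2 are near-identical paralogs that can share reads in counting, which leaves the level of each gene alone uncertain. The same samples that had the most Ins1 counts, WT replicate 1 and 6SA replicate 1, had the most Ins2 counts.

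Among the peptide hormone genes, galanin (Gal, ENSMUSG00000024907, chromosome 19, 3409915 to 3414544), a neuropeptide that inhibits insulin release, had the lowest adjusted p. It was at 8922, 13409, 42.5, 10710 and 1807 CPM with MafA and at 0.164, 13.7 and 83.7 CPM without. Again 4 samples were above all Ngn3-Pdx1 samples and WT replicate 3 was within their range (log2 fold change 8.33, standard error 1.30, edgeR adjusted p = 0.000642). Gal was called in all 11 fits that left out 1 sample and in all 11 other settings tried.

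Of 20 hormone genes listed, 18 were tested and 2, Ins1 and Gal, rose while none fell, against 0.525% higher and 1.35% lower of all 24004 genes tested. Their median log2 fold change was 1.58 and that of all genes -0.01. Without WT replicate 3 of the Ngn3-Pdx1-MafA cells 4 were called. The shares of all genes given here also apply to the lists below, and no list was tested against them. A list with 1 or 2 called members is therefore a statement about those genes and not about the list. The incretin gene Gip was at 1163, 1219, 94.8, 1019 and 28.9 CPM with MafA and at 0.492, 83.7 and 132 CPM without, with overlapping groups (edgeR adjusted p = 0.112). Somatostatin (Sst), the delta-cell hormone, was at 1605 to 30704 CPM against 19.0 to 13797 CPM (edgeR adjusted p = 0.764). Amylin (Iapp), which beta cells release with insulin, was at 389 to 1650 CPM against 9.51 to 1013 CPM (edgeR adjusted p = 0.817). Neuropeptide Y (Npy) was counted in 2 of the Ngn3-Pdx1-MafA samples, at 96.2 and 13 CPM, and reached 0.272 CPM without MafA (edgeR adjusted p = 0.0788). Ghrelin (Ghrl), the hormone of epsilon cells, was at 10.8 to 3053 CPM against 221 to 2559 CPM (edgeR adjusted p = 0.44), and peptide YY (Pyy) at 0 to 1406 CPM against 1.48 to 241 CPM (edgeR adjusted p = 0.745). Glucagon (Gcg), the alpha-cell hormone, had no count in the 5 samples with MafA. The other 8 hormone genes tested, Ppy, Gast, Cck, Sct, Calca, Calcb, Tac1 and Ucn3, had edgeR adjusted p-values between 0.324 and 1, and Nts and Vip were below the filter on low counts.

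Over both forms of Ngn3, 126 genes were higher in Ngn3-Pdx1-MafA cells and 325 lower at an edgeR adjusted p under 0.05, and 3668 had an unadjusted p under 0.05. All 451 had the same direction in the WT and the 6SA cultures, which are both part of the contrast. Every Ngn3-Pdx1-MafA sample was above every Ngn3-Pdx1 sample for 112 of all genes tested (0.467%) and below for 231 (0.962%), which included 38 of the 126 genes called higher and 123 of the 325 called lower. At passage 2 only, 136 were higher and 522 lower, and passage 5 held 1 sample with MafA and gave no test. Leaving out 1 sample moved the total of 451 by over 1.5 times in 8 of 11 cases. The total was 1072 without WT Ngn3-Pdx1-MafA replicate 3, 265 and 275 without its replicates 1 and 2, 165 and 225 without 6SA Ngn3-Pdx1-MafA replicates 1 and 2, 274 and 267 without 6SA Ngn3-Pdx1 replicates 2 and 3, and 271 without WT Ngn3-Pdx1 replicate 3. In pools of sorted cells, fewer cells with a transcript and less of it per cell cannot be told apart.

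**Figure D2:**
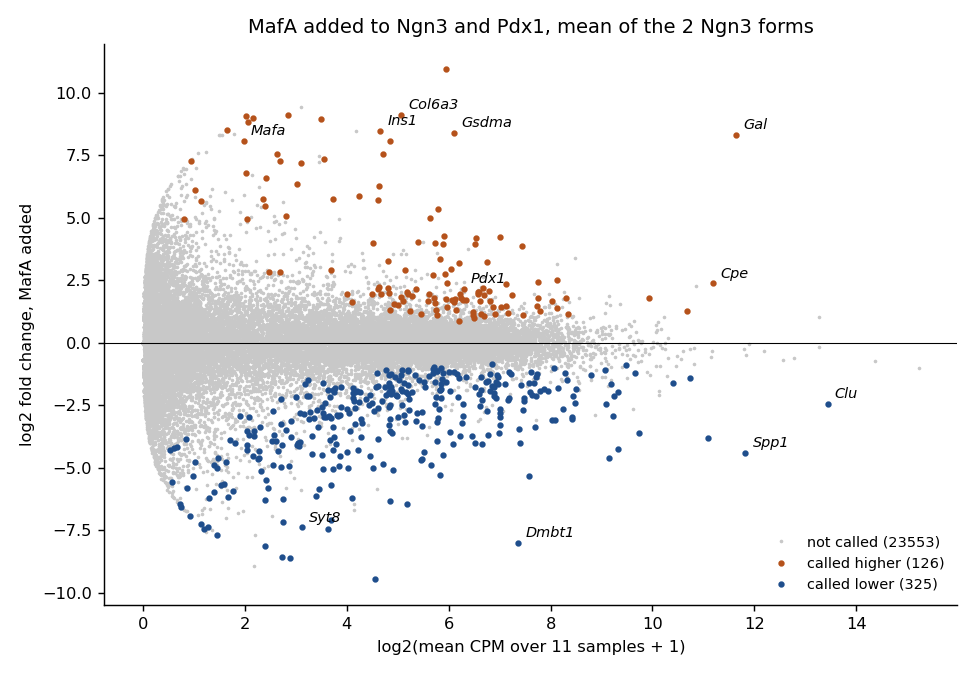
Log2 fold change of Ngn3-Pdx1-MafA over Ngn3-Pdx1 cells against log2 of the mean CPM over 11 samples plus 1 for the 24004 genes tested, with genes called at an edgeR adjusted p under 0.05 in orange (higher) and blue (lower) and 11 genes labelled. The 126 genes higher and 325 lower lie on both sides of a median of -0.01, and Col6a3, Mafa, Ins1, Gal and Gsdma are at the upper edge and Dmbt1 at the lower edge.

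Of the genes linked to beta-cell identity and function, 29 were listed, 26 were tested and 3 rose, which were Ins1, Mafa and Pdx1, the latter 2 being genes that the vectors supply. None fell. The median log2 fold change of the 26 was 1.04, or 0.66 when genes with no count in 1 of the groups were put at the bound that 3 counts set. A second list of genes that MafA is known to regulate or that fall in mice lacking it had 16 tested members, of which 2 (Ins1 and Pdx1) rose and all 16 had a fold change above 0, with a median of 1.82 (1.6 with the bounds). Without WT Ngn3-Pdx1-MafA replicate 3, 5 genes of each list were called, and without 6SA Ngn3-Pdx1-MafA replicate 2, 2 of the first list and 1 of the second.

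The glucose transporter gene Slc2a2, which serves glucose uptake in rodent beta cells, was at 0, 5.12 and 42.7 CPM (lowest, median and highest) with MafA and at most 0.832 CPM without (log2 fold change 4.38, edgeR adjusted p = 0.0642). Chrnb4, a nicotinic acetylcholine receptor subunit, was at 2.39, 122 and 189 CPM against 0, 6.80 and 25.6 CPM (log2 fold change 3.59, edgeR adjusted p = 0.107). Neither passed the threshold and in both the lowest sample with MafA was within the range of the others. The sulfonylurea receptor Abcc8 (log2 fold change 1.20), the potassium channel subunit Kcnj11 (-0.22) and the prohormone convertases Pcsk1 (0.37) and Pcsk2 (0.62) had edgeR adjusted p-values between 0.626 and 1. The zinc transporter gene Slc30a8 was below the filter on low counts.

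None of 25 endocrine transcription factors tested was called (median log2 fold change 0.35). Neurod1 (0.70), Nkx2-2 (-0.01), Pax6 (0.05) and Insm1 (0.83), factors that act in endocrine progenitors and islet cells, had edgeR adjusted p-values between 0.582 and 1. Neurod2 was at 61.4, 29.4, 1.86, 31.5 and 22.9 CPM with MafA and at 0, 2.25 and 9.18 CPM without, and was not called (log2 fold change 3.06, edgeR adjusted p = 0.166). Of 11 genes of the Maf family and related partners tested, Mafa rose and Nfe2l2 fell. Nfe2l2, a basic leucine zipper factor that pairs with the small Maf proteins, decreased by 1.22 on the log2 scale (edgeR adjusted p = 0.0151), from 268, 396 and 552 CPM without MafA to 130, 184, 336, 149 and 141 CPM. The call was lost when the model held the 4 groups only.

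Genes of secretory granules and of exocytosis were next. Of 27 tested, 3 rose and none fell, with a median log2 fold change of 1.21 and 25 of 27 above 0. Carboxypeptidase E (Cpe), which trims prohormones, was at 2616, 7806, 1015, 3023 and 6361 CPM with MafA and at 533, 748 and 1490 CPM without (log2 fold change 2.37, standard error 0.52, edgeR adjusted p = 0.0132). Vamp2, the vesicle SNARE protein, was at 108, 63.5, 42.4, 134 and 186 CPM against 21.8, 35.6 and 46.8 CPM (log2 fold change 1.64, standard error 0.30, edgeR adjusted p = 0.00323). In both genes WT replicate 3 was the lowest sample with MafA and the 1 that overlapped the other group. Rab3a, the small GTPase of secretory vesicles, had a log2 fold change of 1.80, with a standard error of 0.42 (edgeR adjusted p = 0.0206) and was called in 4 of the 11 fits that left out 1 sample. The granule protein chromogranin A (Chga) was at 349 to 5360 CPM with MafA and 105 to 2136 CPM without (edgeR adjusted p = 0.172). Chromogranin B (Chgb) had a log2 fold change of -0.24 (edgeR adjusted p = 0.982). The summed level of the 27 genes was 3414 to 19695 CPM against 2313 to 12069 CPM.

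Of 20 ion channel genes tested, 1 rose, the voltage-gated sodium channel Scn9a. It was at 7.78, 37.7, 0, 14.2 and 17.5 CPM with MafA and at 0, 0 and 0.770 CPM without (log2 fold change 6.34, standard error 1.44, edgeR adjusted p = 0.0265), and was called in 3 of the 11 fits that left out 1 sample. Antisense transcripts overlap Scn9a and these libraries do not mark strand, so their reads cannot be told apart. DESeq2 called none of the 20 ion channel genes. Of 20 genes of glucose metabolism none rose and 2 fell. The number that fell was 0 when the model held the 4 groups only, 1 without 6SA Ngn3-Pdx1-MafA replicate 2, and 4 without WT Ngn3-Pdx1-MafA replicate 3 or with DESeq2, both of which called 1 gene higher. Hexokinase 2 (Hk2), a high-affinity hexokinase that mature beta cells keep low, fell by 2.24 on the log2 scale, from 18.5, 56.4 and 71.9 CPM to 7.05, 5.71, 42.7, 2.92 and 11.3 CPM (edgeR adjusted p = 0.0135). Slc16a1, the monocarboxylate transporter that beta cells also keep low, fell by 1.86 on the log2 scale, from 33.2, 72.7 and 155 CPM to 16.1, 10.4, 58.8, 20.4 and 16.8 CPM (edgeR adjusted p = 0.0416). Lactate dehydrogenase A (Ldha) had a log2 fold change of -1.06 and was not called (edgeR adjusted p = 0.0589). In Hk2 and Slc16a1 the highest sample with MafA was WT replicate 3, which lay among the Ngn3-Pdx1 samples.

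**Figure D3:**
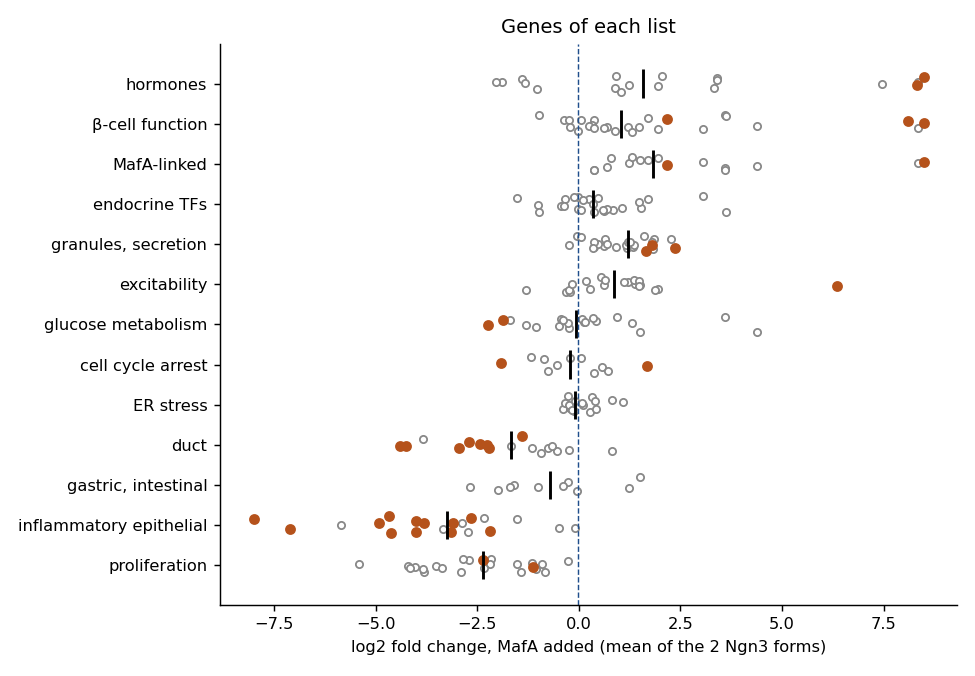
Log2 fold change of Ngn3-Pdx1-MafA over Ngn3-Pdx1 cells for each tested member of 13 gene lists, 1 row per list, with members called at an edgeR adjusted p under 0.05 as filled points, the list median as a black line and the median of all genes as a dashed line. All 20 inflammatory and all 23 proliferation genes lie below 0, and 25 of 27 granule genes above 0.

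The 12 genes higher with MafA at the lowest adjusted p were Col6a3, Fkbp9, Gsdma, Scarb2, Mmd, Tnfaip8, Rprml, Gal, St3gal5, Col5a3, Ddi2 and Vamp2. Col6a3 (ENSMUSG00000048126, chromosome 1, 90765923 to 90843971), a chain of type VI collagen, was at 101, 129, 6.65, 92.0 and 28.9 CPM with MafA and at 0, 0 and 0.634 CPM without (log2 fold change 9.12, standard error 1.06, edgeR adjusted p = 8.58e-05). Gsdma (ENSMUSG00000017204, chromosome 11, 98664351 to 98677708), a gasdermin, was at 106, 290, 12.5, 164 and 172 CPM against 0, 0.116 and 1.95 CPM (log2 fold change 8.40, standard error 1.11, edgeR adjusted p = 0.000143). Neither gene's groups overlapped, although WT replicate 3 was again the lowest. Rprml was at 116, 130, 10.4, 257 and 65.9 CPM against 0, 4.27 and 5.25 CPM, without overlap (log2 fold change 5.35, edgeR adjusted p = 0.000538). Col5a3, a chain of type V collagen, was at 73.6, 1.90, 5.85, 3.32 and 29.5 CPM against at most 2.70 CPM (log2 fold change 7.36, edgeR adjusted p = 0.00219).

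Fkbp9, a prolyl isomerase of the endoplasmic reticulum, was at 394, 596, 125, 543 and 838 CPM with MafA and at 44.2, 80.8 and 174 CPM without (log2 fold change 2.51, standard error 0.33, edgeR adjusted p = 0.000123). Scarb2, the lysosomal membrane receptor for glucocerebrosidase, was at 503, 400, 112, 409 and 498 CPM against 39.1, 64.7 and 148 CPM (log2 fold change 2.42, standard error 0.34, edgeR adjusted p = 0.000208). In both genes WT replicate 3 overlapped the Ngn3-Pdx1 samples and the other 4 did not. St3gal5, the sialyltransferase that makes the ganglioside GM3, had a log2 fold change of 3.25 (edgeR adjusted p = 0.000736). Mmd was at 71.4 to 175 CPM against 8.97 to 31.8 CPM without overlap (log2 fold change 2.75, edgeR adjusted p = 0.000508). Tnfaip8 and Ddi2 had log2 fold changes of 1.68 and 1.70 (edgeR adjusted p = 0.000508 and 0.00223). Apart from Col5a3, which missed the threshold in 1 other setting, these 12 genes were called in all 11 fits that left out 1 sample and in all 11 other settings.

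**Figure D4:**
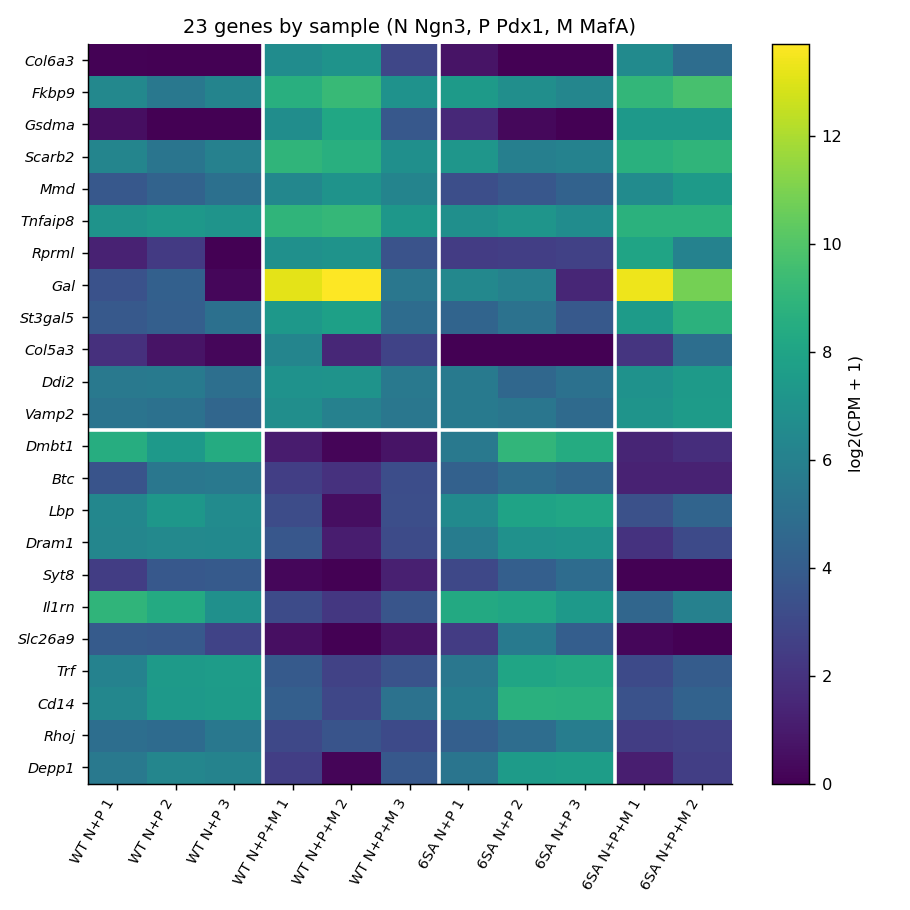
Levels, as log2(CPM + 1) on a colour scale from dark (low) to bright (high), in each of the 11 samples of the 12 genes higher and 11 of the 12 genes lower with MafA at the lowest adjusted p, 1 row per gene and 1 column per sample. WT replicate 3 with MafA is the darkest of the samples with MafA for most of the higher genes, and the lower genes are darker in the 5 samples with MafA than in the 6 without.

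Of 17 duct genes tested, 8 fell and none rose, with a median log2 fold change of -1.66 and 16 of 17 below 0. Osteopontin (Spp1), a secreted phosphoprotein of ducts, was at 265, 63.8, 522, 69.2 and 526 CPM with MafA and at 1147, 5395 and 13093 CPM without (log2 fold change -4.39, standard error 0.73, edgeR adjusted p = 0.00134). Clusterin (Clu), a secreted chaperone, was at 2475, 2270, 4573, 3422 and 3295 CPM against 7067, 15627 and 28343 CPM (log2 fold change -2.44, standard error 0.37, edgeR adjusted p = 0.000508). The groups did not overlap in either gene. The mucin Muc1 and the tetraspanin Tspan8 also separated the groups, at 19.3 to 124 CPM against 172 to 400 CPM and at 1.76 to 85.6 CPM against 97.2 to 457 CPM (log2 fold changes -2.20 and -2.96, edgeR adjusted p = 0.0039 and 0.0134). Matrilysin (Mmp7, -4.25), carbonic anhydrase 2 (Car2, -2.27) and the keratins Krt19 (-2.70) and Krt18 (-1.40) were the other 4. Krt19 was at 5.27, 34.8 and 128 CPM (lowest, median and highest) against 121, 282 and 401 CPM.

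Other duct genes did not pass the threshold. Krt7 was at 642 to 1097 CPM with MafA and 619 to 1326 CPM without (log2 fold change -0.25, edgeR adjusted p = 0.817). Sox9, the transcription factor of ductal and progenitor cells, was at 61.6 to 156 CPM against 22.1 to 242 CPM (-0.66, edgeR adjusted p = 0.635), and Epcam had a log2 fold change of -0.54 (edgeR adjusted p = 0.858). The chloride channel Cftr, at 0 to 1.82 CPM against 0.0906 to 13.1 CPM, had -3.84 (edgeR adjusted p = 0.0757). The summed level of the 17 genes was 5382 to 10968 CPM with MafA and 13105 to 54211 CPM without, and did not overlap. The number called was 5 without 6SA Ngn3-Pdx1-MafA replicate 2, 10 without WT replicate 3, and 3 when the model held the 4 groups only.

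Of 20 genes of the inflammatory response of epithelial cells tested, 12 fell, none rose and all 20 had a fold change below 0, with a median of -3.24. Dmbt1 (ENSMUSG00000047517, chromosome 7, 131032053 to 131121630), a secreted scavenger receptor of mucosal epithelia, was at 1.05, 0.146, 0.665, 1.63 and 2.43 CPM with MafA and at 45.8, 350 and 515 CPM without (log2 fold change -8.00, standard error 0.99, edgeR adjusted p = 8.58e-05). Lipopolysaccharide-binding protein (Lbp) was at 8.18, 0.439, 8.64, 9.50 and 20.6 CPM against 80.6, 125 and 274 CPM (log2 fold change -4.00, standard error 0.53, edgeR adjusted p = 0.000123). The interleukin 1 receptor antagonist (Il1rn) was at 7.61, 3.66, 11.2, 22 and 64.0 CPM against 119, 299 and 506 CPM (log2 fold change -3.99, standard error 0.56, edgeR adjusted p = 0.00022). None of these 3 genes overlapped between the groups, and each was called under every setting tried. The adhesion molecule Icam1 was at 11 to 126 CPM against 133 to 258 CPM, also without overlap (log2 fold change -2.66, edgeR adjusted p = 0.00302).

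For the cytokine Tnf, 4 samples with MafA were at 0.174 to 5.43 CPM and WT replicate 3 was at 64.0 CPM, within the 25.2 to 110 CPM of the Ngn3-Pdx1 samples (log2 fold change -4.66, edgeR adjusted p = 0.00143). The neutrophil chemokine Cxcl5 (-4.61), the chemokines Cxcl2 (-3.14) and Ccl20 (-7.10), lipocalin 2 (Lcn2, -3.80), complement C3 (-3.10), the alarmin Il33 (-4.91) and the deubiquitinase Tnfaip3 (-2.18) also fell. Lcn2 was at 18.4, 307 and 509 CPM (lowest, median and highest) with MafA and at 255, 3413 and 8283 CPM without. Relb and Nfkb2, genes of the NF-kB pathway itself, were not called (log2 fold changes -0.48 and -0.11, edgeR adjusted p = 0.694 and 1). The summed level of the list was 219 to 2453 CPM against 1605 to 14294 CPM. The number called was 7 without 6SA Ngn3-Pdx1-MafA replicate 2, 15 without WT replicate 3 and 8 when the model held the 4 groups only.

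The genes lower with MafA at the lowest adjusted p also included Btc, Dram1, Syt8, Slc26a9, Trf, Cd14, Rhoj and Depp1. Betacellulin (Btc), a ligand of the epidermal growth factor receptor, was at 4.94, 2.93, 8.51, 1.49 and 1.48 CPM with MafA and at 10.9, 25.4 and 45.4 CPM without (log2 fold change -3.25, standard error 0.40, edgeR adjusted p = 8.58e-05). Syt8, a synaptotagmin, was at 0.162, 0, 1.33, 0 and 0 CPM against 4.64, 13.3 and 27.7 CPM (log2 fold change -7.39, standard error 0.96, edgeR adjusted p = 0.000123). Neither overlapped. Slc26a9, an epithelial chloride transporter, had a log2 fold change of -6.15, with at most 0.665 CPM against 4.40 to 48.8 CPM. The lipopolysaccharide co-receptor Cd14 was at 6.58 to 34.8 CPM against 52.1 to 411 CPM (-3.61, edgeR adjusted p = 0.000284). Transferrin (Trf, -4.03), the autophagy-linked Dram1 (-3.93), the small GTPase Rhoj (-2.39) and Depp1 (-4.51) had edgeR adjusted p-values of 0.000123 to 0.000508.

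Of 23 proliferation genes tested, all had a fold change below 0 (median -2.36), and 2 fell at the threshold, both subunits of the replicative helicase. Mcm5 was at 4.54, 3.66, 4.79, 4.14 and 9.90 CPM with MafA and at 11.3, 23.2 and 57.0 CPM without (log2 fold change -2.36, standard error 0.53, edgeR adjusted p = 0.0146). Mcm2 was at 14.0 to 28.7 CPM against 43.3 to 52.7 CPM (log2 fold change -1.14, standard error 0.30, edgeR adjusted p = 0.0395). Neither gene overlapped between the groups. The marker of cycling cells Mki67 was at 0, 0.95 and 30.3 CPM against 0.0693, 11.5 and 163 CPM (edgeR adjusted p = 0.206), and Cdk1, which drives mitosis, was at 0 to 11.8 CPM against 3.67 to 163 CPM (edgeR adjusted p = 0.0704). Of 11 genes in a list of cell cycle arrest that also holds cyclins, Gadd45a rose and cyclin D1 (Ccnd1) fell. Gadd45a, a DNA damage and stress response gene, was at 160, 199, 143, 267 and 109 CPM against 31.0, 57.5 and 88.5 CPM, without overlap (log2 fold change 1.67, edgeR adjusted p = 0.0183). Ccnd1 was at 22.7 to 351 CPM against 154 to 553 CPM (log2 fold change -1.92, edgeR adjusted p = 0.0229). No gene of this list fell at the threshold when the model held the 4 groups only. The inhibitor Cdkn1a, at 632 to 1697 CPM against 542 to 1072 CPM, was not called (edgeR adjusted p = 0.232). The number of proliferation genes called was 4 without WT Ngn3-Pdx1-MafA replicate 3, 9 with DESeq2 and 1 when the model held the 4 groups only.

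Genes of other islet lineages were mostly below the threshold. Of 14 alpha-cell genes tested 1 fell, the vitamin D-binding protein gene Gc, from 146, 555 and 1037 CPM to 37.0, 53.8, 62.0, 30.8 and 142 CPM without overlap (log2 fold change -3.06, standard error 0.55, edgeR adjusted p = 0.0024). Of 9 delta-cell genes 1 fell, the coagulation factor F5, at 1.17 to 2.24 CPM against 3.94 to 29.7 CPM (log2 fold change -3.07, edgeR adjusted p = 0.0282), which was called in 5 of the 11 fits that left out 1 sample. The median log2 fold changes were -0.13 for the alpha and -0.34 for the delta list. EdgeR called none of 4 genes of epsilon and gamma cells, 10 gastric and intestinal genes and 17 genes of endoplasmic reticulum stress. Their median log2 fold changes were -1.68, -0.70 and -0.09. DESeq2 called 1 gastric or intestinal gene lower and 1 stress gene higher. At passage 2 only, 1 gene of epsilon and gamma cells and 1 gastric or intestinal gene fell. The chaperone gene Hspa5 was at 766 to 1034 CPM against 716 to 1614 CPM.

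Markers of cells that a ductal culture could also hold were low in both groups. Of 13 acinar genes, 7 were below the filter and 6 were tested. Cela1 alone was called, at no more than 0.203 CPM with MafA and 0 to 9.71 CPM without (log2 fold change -5.98, edgeR adjusted p = 0.0303). No acinar gene was called at passage 2 only or when the model held the 4 groups only, and DESeq2 called 2 lower. The acinar genes Cpa1, Cela2a, Ptf1a and Pnlip had no count in the 11 samples, and the list summed to 2.39 to 19.7 CPM with MafA and 1.01 to 43.0 CPM without. DESeq2 called 1 leukocyte gene higher and 1 lower. With edgeR no gene of the fibroblast (5 tested), endothelial (7 tested), leukocyte (4 tested) or Schwann cell (3 tested) lists was called. Their summed levels were 0.203 to 19.7 CPM against 0.589 to 2.22 CPM for fibroblasts, 3.46 to 34.5 CPM against 3.04 to 45.2 CPM for endothelium, 10.2 to 39.5 CPM against 1.01 to 15.0 CPM for leukocytes and 1.13 to 5.02 CPM against 2.30 to 5.12 CPM for Schwann cells. The fibroblast genes Pdgfrb, Dcn and Lum, the leukocyte genes Adgre1, Cd3e and Tyrobp and the Schwann cell gene Sox10 had no count in the 11 samples. The lysosomal gene Cd68 had the most counts of the leukocyte list, at 9.31 to 37.3 CPM with MafA.

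The 2 forms of Ngn3 were compared next. In the WT cultures alone 6 genes were higher (0.025%) and 21 lower (0.0875%), and in the 6SA cultures alone, with 2 samples with MafA, 11 were higher (0.0458%) and 37 lower (0.154%). These counts moved with single libraries. In WT the total of 27 became 4, 4, 7, 9 and 11 without WT Ngn3-Pdx1 replicate 2, WT Ngn3-Pdx1-MafA replicate 2, WT Ngn3-Pdx1-MafA replicate 1, WT Ngn3-Pdx1 replicate 3 or WT Ngn3-Pdx1 replicate 1, with 0 genes higher without any of the 3 Ngn3-Pdx1 samples, and 288 without WT Ngn3-Pdx1-MafA replicate 3. In 6SA the total of 48 became 0 without 6SA Ngn3-Pdx1 replicate 2 or 6SA Ngn3-Pdx1-MafA replicate 2, 6 and 7 without 6SA Ngn3-Pdx1 replicate 3 or 6SA Ngn3-Pdx1-MafA replicate 1, and 109, 117 and 117 without WT Ngn3-Pdx1-MafA replicate 2, WT Ngn3-Pdx1-MafA replicate 3 or 6SA Ngn3-Pdx1 replicate 1. With only the compared groups in the model, 5 genes were called in WT and 0 in 6SA. No gene had an effect of MafA that differed between the forms at an edgeR adjusted p under 0.05, while 764 had an unadjusted p under 0.05 and DESeq2 called 9. Col6a3 had log2 fold changes of 10.54 in WT and 7.69 in 6SA (edgeR adjusted p = 0.0081 and 0.0237), Gsdma 9.20 and 7.60 (0.0222 and 0.0264) and Dmbt1 -8.78 and -7.22 (0.00175 and 0.0237). Gal passed the threshold in WT (9.70, edgeR adjusted p = 0.0372) and not in 6SA (6.96, 0.122), and Tnf in 6SA (-7.95, 0.0224) and not in WT (-1.37, 0.66), with no difference between the forms at the threshold. Over the 126 genes called higher the median log2 fold change was 2.23 in WT and 2.30 in 6SA, and over the 325 called lower -2.08 and -3.00. These genes were called on the average of both forms, so such medians in each form follow in part from that choice. They do not test whether the forms agree.

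Whether MafA had the same effect without Ngn3 was asked next. Cells that carried the Pdx1 and MafA reporters were compared with those with Pdx1 alone (6 and 4 samples). Their labels name a WT or a 6SA Ngn3 culture as the source. The mean levels of Mafa and Pdx1 were lower in the Pdx1-MafA cells than in the Ngn3-Pdx1-MafA cells. Mafa was at 1.57 ± 2.30 CPM in WT and 0.639 ± 0.737 CPM in 6SA cultures (SD, n = 3 each), with 0 in the lowest 6SA sample, against 5.22 ± 2.96 CPM (SD, n = 3) and 8.27 ± 6.23 CPM (SD, n = 2) with all 3 factors. Pdx1 averaged 19.3 CPM in WT and 25.01 CPM in 6SA Pdx1-MafA cells, against 129 and 142 CPM. The absence of Ngn3 and the lower levels of MafA and Pdx1 cannot be told apart in this comparison. In it no gene passed the threshold with edgeR, 531 had an unadjusted p under 0.05 and DESeq2 called 13. The median log2 fold change of the 126 genes higher beside Ngn3 was 0.15 there and that of the 325 lower -0.08. Both sets were chosen for their values beside Ngn3, so smaller medians in another comparison follow in part from that choice. The effect of MafA with Ngn3 differed from that without it, in a test of the difference itself, for 3 genes in the higher direction (0.0125%) and 20 in the lower (0.0833%), and for 222 genes with DESeq2. The 3 were Gal (difference 8.50 on the log2 scale, edgeR adjusted p = 0.0406), Scarb2 (2.32, 0.0498) and Fkbp9 (2.27, just under the threshold). None of the 3 was called without 6SA Ngn3-Pdx1 replicate 2 or 3, WT Ngn3-Pdx1 replicate 2 or 3 or 6SA Ngn3-Pdx1-MafA replicate 1, where 0 genes were higher, nor when the model held the compared groups only. The 20 included Btc (-3.59, edgeR adjusted p = 0.00529), Syt8 (-7.64, 0.00529), Dmbt1 (-6.78, 0.0131), Lbp (-3.82, 0.0271) and Clu (-2.56, 0.044). All 23 were among the genes called over both Ngn3 forms, and the contrast that called those genes is part of this test. The count of 23 was 242 without WT Ngn3-Pdx1-MafA replicate 3 and 103 at passage 2 only. It was 3, 4, 6, 8, 8 and 14 without 6SA Ngn3-Pdx1 replicate 3 or 2, WT Ngn3-Pdx1 replicate 3 or 2, 6SA Ngn3-Pdx1-MafA replicate 1 or WT Ngn3-Pdx1-MafA replicate 1, in that order of libraries, and 64 without 6SA Ngn3-Pdx1 replicate 1.

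Levels in the other sorted combinations showed where these transcripts were found. Gal in the WT cultures averaged 7458 ± 6802 CPM beside all 3 factors, 90.5 ± 40.7 CPM in Ngn3-MafA cells and 9.20 ± 8.71 CPM in Ngn3-Pdx1 cells (SD, n = 3 for each), and in the 6SA cultures 6259 ± 6295 CPM (SD, n = 2), 866 ± 891 CPM (SD, n = 3) and 50.1 ± 42.9 CPM (SD, n = 3). Without Ngn3 its mean was 1.00 to 2.57 CPM. The spread with the 3 factors was as wide as the mean in each culture. Ins1 had no count in any sample with Ngn3 and MafA or without Ngn3. Col6a3 was also counted with Ngn3 and MafA, at 17.3 ± 8.31 CPM in WT and 36.5 ± 32.7 CPM in 6SA cultures (SD, n = 3 each), as was Gsdma, at 8.34 ± 7.60 and 105 ± 143 CPM (SD, n = 3 each). Both had means of at most 0.154 CPM in the groups without Ngn3. Dmbt1 was at 24.6 ± 20.5 CPM in WT and 187 ± 160 CPM in 6SA cells with Ngn3 and MafA, whereas Pdx1-MafA cells had 448 ± 218 and 482 ± 376 CPM (SD, n = 3 for each). The order of Dmbt1 in the WT cultures, with the 3 factors lowest at 0.621 ± 0.455 CPM (SD, n = 3), then Ngn3 and MafA, then Ngn3 and Pdx1 at 297 ± 109 CPM (SD, n = 3), held for the means of the 6SA cultures as well. Neighbours in these orders were not tested.

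**Figure D5:**
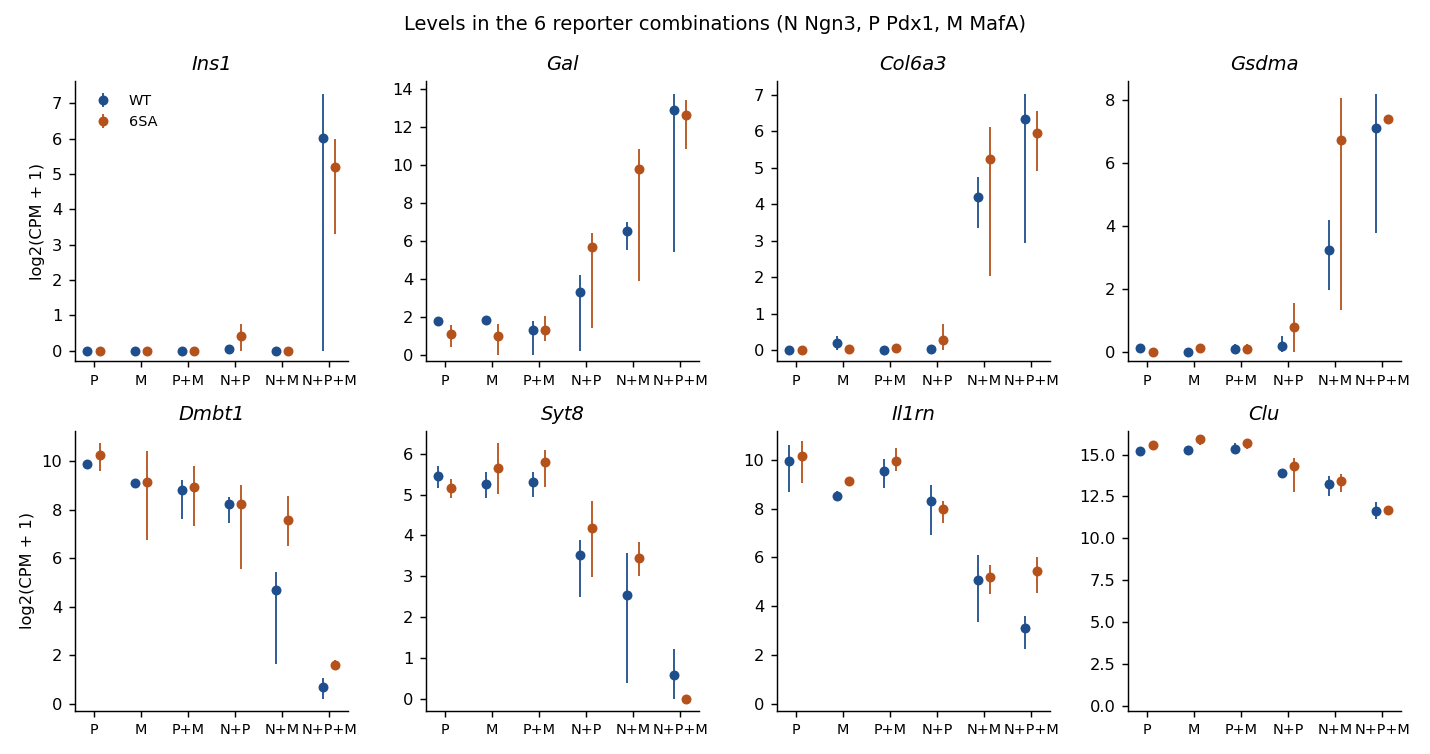
Mean level, as log2 of the mean CPM plus 1, of Ins1, Gal, Col6a3, Gsdma, Dmbt1, Syt8, Il1rn and Clu in the 6 sorted reporter combinations of the WT (blue) and 6SA (orange) cultures, with bars from the lowest to the highest of the 2 or 3 samples. Ins1 is at 64.3 and 35.7 CPM with the 3 factors and near 0 elsewhere, and Dmbt1 is lowest with the 3 factors.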

How the data were processed

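RNA of pools of 50 sorted cells was amplified by a Smart-seq2 protocol and made into Nextera XT libraries. The authors aligned the reads with GSNAP and counted them on Ensembl genes with HTSeq (version 0.5.3p3), per the submitters' processing notes, and deposited raw counts for 46078 genes and 92 spike-ins, with no normalization. Rows that name no gene, such as reads outside genes, held 33.9% to 67.3% of each column and were left out. Smart-seq2 with Nextera XT does not mark strand. PCR reads without molecular identifiers are not independent molecules, so intervals and floors of 3 counts cover counting error only. Whether vector and cellular transcripts of the factors were separated is not given in the sources used here.

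Libraries with more than 25% spike-in counts, at most 1000000 gene counts or at most 10000 genes detected were left out. These are the criteria the methods give. They removed 3 libraries, all from Ngn3-Pdx1-MafA cells, fewer than the methods count as left out. Technical repeats were summed. A gene was tested if 5 or more libraries had a count of it and its log2(CPM + 1) varied by more than 0.001 (variance), which 24004 did. One quasi-likelihood model with 12 condition means was fitted to the counts of all 32 samples (edgeR 4.0.16, R 4.3.3, TMM, glmQLFit with legacy=TRUE), and the contrast was taken within each Ngn3 form and averaged over both. P-values were adjusted over all genes tested (Benjamini-Hochberg, threshold 0.05), and standard errors are the log2 fold change divided by the square root of the F statistic. The methods name DESeq2, which was run as an alternative (version 1.42.0). On simulated counts for 24004 genes, of which 200 were changed, edgeR recovered 100% of 16-fold and 73% of 4-fold changes in this comparison. It made 2 false calls among 175, and DESeq2 made 55 false calls among 232. These rates are those of the simulated counts and are not error rates of the real samples.

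Coordinates are those of GENCODE vM21 (GRCm38), and promoter windows of RefSeq (GRCm38.p6) were matched by symbol to 13440 of the genes tested. Members and gene lists were chosen with earlier results of these data known. Named were the 3 factors, the hormones, up to 6 called members of each list or, with none called, the 2 with the lowest p, and the 12 genes higher and 12 lower with the lowest adjusted p. Some genes that the rule names are not reported here. Members of a list named outside this rule were picked for their known role, and genes of the difference with and without Ngn3 because they passed its test. The alternatives were RLE size factors, 2 other gene filters, a model of the compared groups alone, replicate blocks, all libraries, first repeats only, passage 2 only, legacy=FALSE, pseudocounts of 0.1 and 10 for the permutation tests, and leaving out each sample.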

Additional observations from a re-analysis of the deposited data

Results flagged for a closer look

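For 23 genes the effect of MafA beside Ngn3 and Pdx1 differed from its effect beside Pdx1 alone, in a test of the difference at an edgeR adjusted p under 0.05. Mafa averaged 1.57 and 0.639 CPM in the WT and 6SA Pdx1-MafA cells, against 5.22 and 8.27 CPM beside Ngn3, so the absence of Ngn3 and the lower MafA level cannot be told apart. On the log2 scale the difference was 8.50 for Gal, 2.32 for Scarb2 and 2.27 for Fkbp9. It was -6.78 for Dmbt1, -3.82 for Lbp, -3.69 for Il1rn, -3.41 for the lipopolysaccharide co-receptor Cd14, -5.42 for the adhesion molecule Vcam1, -5.83 for the prostaglandin synthase Ptgs2, -2.56 for Clu and -4.15 for transferrin (Trf). Others were Btc at -3.59, Syt8 at -7.64, the chloride transporter Slc26a9 at -5.35, Depp1 at -4.69, Rassf9 at -4.41, Dram1 at -3.22, Pof1b at -3.53, Spaca7 at -5.87 and 2310007B03Rik at -4.70.

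The 3 libraries left out for low counts, all from Ngn3-Pdx1-MafA cells, held transcripts above the level of the kept Ngn3-Pdx1 libraries, in CPM of their own gene counts. They are given here in the order WT replicate 2, 6SA replicate 2 and 6SA replicate 3. Ins1 was at 1025, 393 and 2.45 CPM, the last from 1 count, against at most 1.11 CPM in a kept Ngn3-Pdx1 library. Ins2 was at 3.20 CPM (2 counts) in WT replicate 2, 41.4 CPM in 6SA replicate 2 and 0 in 6SA replicate 3, against 0. Mafa was at 7.99, 8.28 and 14.7 CPM, against at most 0.369 CPM. Gal was at 17228, 14957 and 4634 CPM, against at most 178 CPM. Gsdma was at 216, 108 and 41.6 CPM, against at most 3.10 CPM, and Col6a3 at 70.3, 33.1 and 12.2 CPM, against at most 2.28 CPM. At these depths several of the values rest on few counts.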

How the results depend on the processing

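The 451 genes called over both Ngn3 forms became 1371 with DESeq2 (429 shared), 1454 without a gene filter, 186 when the model held the compared groups only, 880 with legacy=FALSE, 1188 with a replicate block and 1340 with a block for culture and replicate. The labels do not say that a replicate number marks a shared culture. Deviations of same-numbered WT samples correlated at 0.428, -0.0381 and 0.479, and those of different-numbered WT samples at -0.462 to 0.218. The values of replicates 1 and 3 were above all of the latter, and that of replicate 2 was within their range. Replicate 3 also differs in passage, so pairing in WT was neither shown nor excluded. In 6SA the same-numbered values were -0.335 and 0.186. There the 2 samples with MafA deviate as mirror images and cannot show pairing. In the compared groups alone 93 were higher and 93 lower, and with legacy=FALSE 412 and 468. In the same order of settings, the WT count of 27 became 298, 572, 5, 60, 155 and 194, and 111 at passage 2 only, the 6SA count of 48 became 465, 613, 0, 124, 136 and 202, and the 23 genes of the difference with and without Ngn3 became 222, 542, 10, 35, 54 and 99, and 103 at passage 2 only. The 0 genes of the difference between Ngn3 forms became 9 with DESeq2 and 78 without a filter. Leaving out 1 sample gave 165 to 1072 genes over both forms, 4 to 288 in WT, 0 to 117 in 6SA, 0 to 1 for the difference between forms, 3 to 242 for that with and without Ngn3, and 7.48 to 9.48 for the log2 fold change of Ins1, whose DESeq2 value of 8.55 was not called. Causes of these shifts were not tested. The other 48 named genes called kept their direction in all 1056 values under alternatives, and 97 values of 20 genes missed the threshold. Of 32 named genes not called, 15 passed the threshold in 53 values and 7 changed direction. With 1 sample left out, the log2 fold changes ran from -0.28 to 1.59 for Sst, -4.74 to 3.26 for Pyy, -0.84 to 2.95 for Gast, -0.045 to 3.54 for Calca, -0.63 to 4.59 for Ucn3, -4.57 to 0.76 for Ppy and -6.89 to 0.61 for Cck. The other changes were Cck at 1.77 at passage 2 only, Ppy at 2.17 and Ucn3 at -2.79 with first repeats only, and Pyy at -0.96 with the replicate block. Counts of list members with single samples left out were added after the data were seen.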
